A study of Homo sapiens with 12 samples.

Results

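The genes described here are the translation initiation factors (eIF) and elongation factors (eEF) in the insulin-producing human beta-cell line EndoC-βH1, which is an established line. Members were all genes whose current symbol starts with EIF or EEF and that have a protein-coding RefSeq transcript. They were sorted into groups named after complexes, and a place in a group does not show that a gene, such as EIF1AD, EIF4A3 or EEF1E1, is part of that complex. Of 74 such symbols listed in the files, 64 were members and 10 were left out: 4 kinases of the EIF2AK family, 3 antisense transcripts, 1 pseudogene and 2 genes with no coding RefSeq entry. The files list 21508 genes in all. Of the 64 members 62 passed the filter on low counts, as did 15990 genes in all. EIF5AL1 and EIF4EBP3 did not pass, and EIF1AY, on the Y chromosome, is counted but not described.

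The study crossed silencing of TUNAR, a long noncoding RNA, with inhibition of the kinase GSK3 in EndoC-βH1 cells. All 12 cultures were transfected with siRNA by a lipid reagent, either AllStars negative control siRNA or siRNAs against TUNAR, and after 2 days received DMSO or the GSK3 inhibitor 1-AKP at 5 µM for 24 hours. Each combination of siRNA and treatment had 3 libraries, and no group was left untransfected. Replicates 1 and 2 of each group were at passage 74 and replicate 3 at passage 75. All libraries come from 1 cell line, and the labels do not say what a replicate number marks beyond the passage, so the p-values reflect only how much these cultures varied.

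Translation starts when eIF2, loaded with initiator tRNA and GTP, joins the small ribosomal subunit together with eIF1, eIF1A, eIF5 and the large scaffold eIF3, while the eIF4 proteins bring in the capped mRNA. eIF2B reloads eIF2 with GTP and is a textbook target of GSK3, which phosphorylates its epsilon subunit (EIF2B5) and lowers its activity. During elongation eEF1 delivers aminoacyl-tRNA and eEF2 moves the ribosome along. Secretory beta cells make large amounts of insulin and are known to be sensitive to defects in eIF2 and eIF2B control. The values here are mRNA levels and say nothing of phosphorylation.

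Each library held between 15653786 and 15986834 expected counts. Insulin was at 20684 to 28891 FPKM (fragments scaled by gene length and library total, a level per length) over the 12 libraries, CHGA at 5052 to 5759, PDX1 at 98.6 to 134, NKX6-1 at 63.1 to 120, IAPP at 21.1 to 69.5 and MAFA at 15.5 to 45.7 FPKM. Among 20 markers of other cells, the duct marker KRT19 (33.4 to 45.8 FPKM), SST and the acinar CPA1 (13.5 to 22.0 FPKM) were present and CD14 reached 2.66 and COL1A1 1.10 FPKM. PRSS1, CELA3A, PPY, LUM and CD3E were not listed in any library and were taken as 0, and the others were at 0.88 FPKM or below. TUNAR itself was at 14.4 to 19.9 CPM (counts scaled by library total and TMM) in DMSO cultures given negative siRNA and at 3.83 to 8.09 CPM in those given TUNAR siRNAs, and at 27.9 to 31.0 against 6.95 to 13.6 CPM in 1-AKP. Every library with TUNAR siRNAs was below every library with negative siRNA in the same treatment. Replicate 1 stood apart in all 4 groups: SST, the somatostatin gene, was at 28.1 to 33.5 CPM in its 4 libraries and at 3.80 to 6.52 CPM in the other 8. The members moved with it too. Replicate 1 was the lowest in all 4 groups for 20 of 62 tested members (32.3%), against 17.1% of all genes tested. It was the highest for 6 (9.68%, against 16.2%). Its shift against replicates 2 and 3 was -0.31 on the log2 scale for EEF1A2 and 0.35 for EEF1AKMT2, with a median of -0.04 over the members.

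Several elongation and eIF3 mRNAs are known to begin with a 5′ terminal oligopyrimidine (TOP) tract, a cytosine at the start site followed by pyrimidines, through which mTORC1 controls their translation. The start windows of 6 members that carry such a run, and of 3 members that rose with 1-AKP and do not, are shown to compare both kinds of start. They are 30 bases of RefSeq sequence (GRCh38.p14), 15 before and 15 from the annotated start, with the pyrimidine run in capitals.
EEF1A1 (chr6:73521018-73521047, minus strand): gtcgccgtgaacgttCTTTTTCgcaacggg
EEF2 (chr19:3985449-3985478, minus strand): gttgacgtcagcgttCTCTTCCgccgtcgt
EEF1B2 (chr2:206159880-206159909, plus strand): ccggtctcttcgggtCCTTTTTCCTCTCTT
EIF3M (chr11:32583816-32583845, plus strand): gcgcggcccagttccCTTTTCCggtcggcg
EIF3F (chr11:7987322-7987351, plus strand): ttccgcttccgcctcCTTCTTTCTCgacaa
EIF4B (chr12:53006441-53006470, plus strand): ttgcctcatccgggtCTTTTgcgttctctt
EIF2S1 (chr14:67360313-67360342, plus strand): gcgaggaggttccgcatgcgcggtggagtg
EIF3I (chr1:32222392-32222421, plus strand): accttttccggtcttactcacgttgcggcc
EIF5A2 (chr3:170908623-170908652, minus strand): cccgccccgtctcttggaactgccgcggcc

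RefSeq windows were matched for 50 of the 63 members outside the Y chromosome. A start of C followed by at least 4 further C or T, read on the gene's own strand, was present for 12 of the 50 (24.0%), against 5.14% of all 27305 genes with a window and 4.07% of all 35116 windows. The 12 were EEF1A1, EEF1B2, EEF2, EIF2A, EIF2D, EIF2S3, EIF3D, EIF3F, EIF3K, EIF3M, EIF4A2 and EIF4B. CACGTG, the E-box read by MYC-family factors, lay within 250 bases before to 50 after the start, on either strand, in 13 of the 50 (26.0%), among them EIF4E, EIF4G1, EIF2B3 and EIF5A2, against 8.77% of all genes and 7.26% of windows. Of these 13 genes EIF3F, EIF3K and EIF4B also had the pyrimidine start. A letter match is a description and not a bound site.

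Together the members took 1.80% to 1.86% of all expected counts in the 6 DMSO libraries and 1.92% to 2.00% in the 6 libraries with 1-AKP, so the treatments did not overlap. Per length the order of the genes ran from EEF1A1, which delivers aminoacyl-tRNA, at 1611 ± 61.7 FPKM (mean ± SD, n = 12) through EEF2 at 566 ± 26.8, EEF1G at 560 ± 33.7, EIF4G2 at 439 ± 19.7 and EEF1A2 at 382 ± 46.6 FPKM. EEF2 and EEF1G, neighbours in that order, did not differ beyond their spread. At the other end were EEF1AKMT3 at 2.18 ± 0.196, EIF3CL at 0.757 ± 0.667, EIF4E1B at 0.323 ± 0.0758, EIF4EBP3 at 0.0600 ± 0.0896 and EIF5AL1 at 0.0325 ± 0.0267 FPKM. EIF5AL1 had 0 to 6 counts and EIF4EBP3 0 to 2 counts per library. EIF3CL is a near-identical copy of EIF3C, and its 0 to 97 counts per library depend on how shared reads were split, so its values are uncertain, as are those of EIF5A, EIF1AX and EEF1A1, which also have close copies or pseudogenes.

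**Figure D1:**
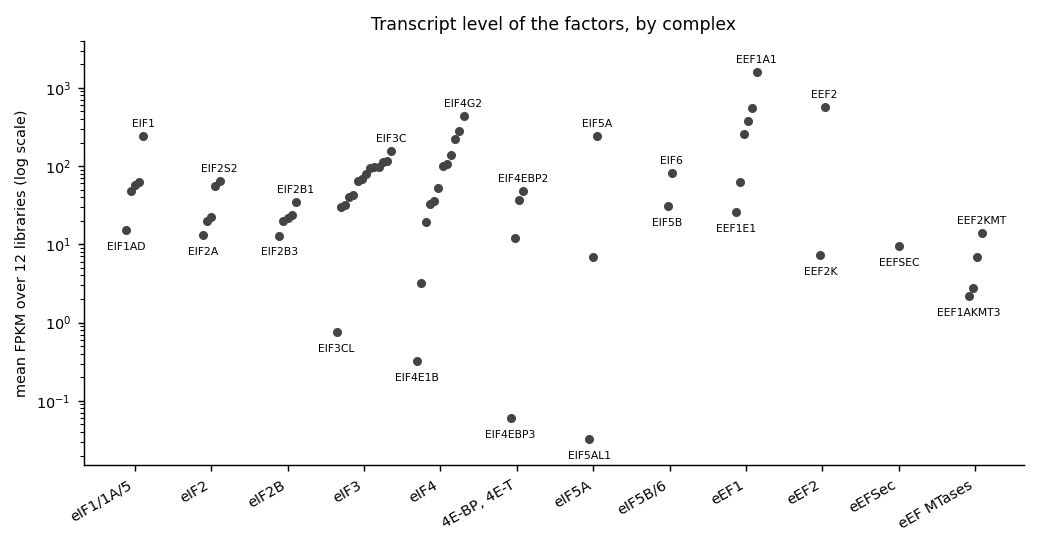
Mean FPKM over 12 libraries of each factor (log axis) by complex, 1 point per gene, with the highest and lowest gene of each complex named. EEF1A1 is at the top at 1611 FPKM and EIF5AL1 at the bottom at 0.0325 FPKM, and the 5 eIF2B subunits lie between 12.95 and 34.3 FPKM.

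Where a factor is encoded by several genes, 1 or 2 supplied most of the mRNA per length. EEF1A1 made up 81.6% ± 1.6 (SD, n = 3) of the summed FPKM of EEF1A1 and EEF1A2 with negative siRNA in DMSO, and EEF1A2, the form typical of neurons and muscle, the rest. EIF5A made up 97.1% ± 0.35 of EIF5A and EIF5A2 in the same group. The helicase genes EIF4A1 and EIF4A2 were close to even, EIF4A1 holding 56.2% ± 0.25. Its share was 55.9%, 56.2% and 56.4% in the libraries with negative siRNA in DMSO, 53.5% to 54.8% with TUNAR siRNAs in DMSO, 57.8% to 58.4% with negative siRNA in 1-AKP and 56.1% to 56.9% with TUNAR siRNAs in 1-AKP. The share was thus lower with TUNAR siRNAs than with negative siRNA in both treatments, without overlap, a pattern noticed in the data and not tested. The 4E-BPs, repressors that sequester the cap-binding protein EIF4E, were also close to even. EIF4EBP2 was at 47.9 ± 1.94 FPKM against 36.9 ± 3.98 FPKM for EIF4EBP1 (n = 12). It held 54.7% ± 1.4 of their sum with negative siRNA in DMSO (SD, n = 3).

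With 1-AKP most of the translation factors were slightly higher, at any passage and with either siRNA. Averaged over both siRNAs, 29 of 62 tested members rose and 2 fell, among them all 3 subunits of eIF2, 10 of 14 eIF3 genes and 4 of 6 eEF1 genes. The largest rises were those of EIF5A2 (24.9%), EIF2B3 (21.0%), EEF2KMT (20.1%) and EIF2S1 (19.9%). Calls are those of edgeR's quasi-likelihood test with a Benjamini-Hochberg adjusted p under 0.05 over all 15990 genes. Of all genes 19.2% were called in either direction and 9.97% rose. The members' median log2 fold change was 0.13 against -0.003 for all genes tested, and 58 of 62 members had a positive value. The members are abundant, and among the 8622 genes with a mean of at least 20 CPM 16.1% rose. All 29 risen members were among the 56 members at that level, and 0 of the 6 members below it rose. The treatment also moved genes by length: across all genes Spearman's rho between log2 fold change and gene length was -0.189, and members were shorter than other genes, with medians of 2182 and 2886 bases. With the length trend removed 33 members were called, a count given without the share over all genes in that fit. The beta-cell markers moved with the treatment too: of 6 tested 0 rose and 3 fell, NKX6-1 by 0.50, IAPP by 0.80 and PDX1 by 0.12 on the log2 scale (edgeR adjusted p = 5.18e-05, 0.0045 and 0.0451), while MAFA had -0.43 (adjusted p = 0.211), CHGA -0.04 and INS 0.02. Their summed level was 20710 to 24780 CPM in DMSO and 20310 to 24630 CPM in 1-AKP. That sum is made up mostly of INS and CHGA, by far the highest of the 6, and says little of the others. Of the 9 tested markers of other cells CD14 rose (0.53, adjusted p = 0.0343). The part of these shifts in the members' rise was not tested. In bulk RNA, fewer cells with a transcript and less of it per cell cannot be told apart.

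**Figure D2:**
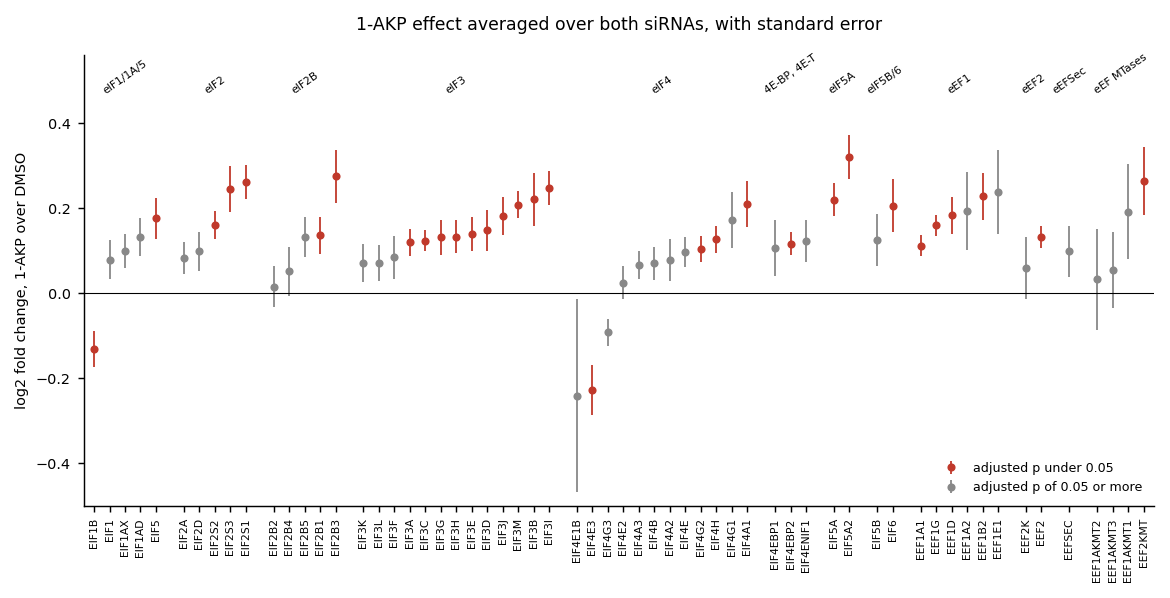
Log2 fold change of each tested member with 1-AKP over DMSO, averaged over both siRNAs (points) with its standard error (bars), ordered within complexes; red points had an adjusted p under 0.05. EIF3CL is left off and nearly all points lie above 0, with EIF1B and EIF4E3 the called members below it.

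The call counts depended on which libraries were used. Of the 31 called members 19 were called in all 12 fits that leave out 1 library, and the other 12 in 2 to 10 of them. Within passage 74 alone, with 2 libraries a group, 4 members were called, EIF2S1, EIF5A2, EIF3I and EIF5A, although the members' median log2 fold change was 0.12. Passage 75 had 1 library per group and so no test. Taking libraries of the same number and siRNA, 52 to 57 of the 62 members were higher with 1-AKP in each of the 6 pairs, where between 49.4% and 50.9% of all genes were, and the members' median difference was 0.10 to 0.16 on the log2 scale. Without replicate 1 of all 4 groups, which stood apart, 37 members rose and 3 fell. The shares of all genes called without replicate 1 and within passage 74 are not given here. A change in these counts can therefore be one in the calls over all genes.

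The trimer eIF2, which carries the initiator tRNA, rose in all its parts. EIF2S1, the alpha subunit phosphorylated in the stress response, was at 81.3, 88.1 and 89.6 CPM with negative siRNA in DMSO and at 99.6, 106 and 110 CPM in 1-AKP. With TUNAR siRNAs it was at 81.9, 83.7 and 89.6 CPM in DMSO and at 97.2, 101 and 103 CPM in 1-AKP. Every library with 1-AKP was above every DMSO library, and the averaged log2 fold change was 0.26 (SE 0.04, edgeR adjusted p = 0.000659). The beta subunit EIF2S2 rose by 0.16 (SE 0.03, adjusted p = 0.0048) and the gamma subunit EIF2S3, which binds GTP, by 0.25 (SE 0.05, adjusted p = 0.00653) on the log2 scale. EIF2A and EIF2D, alternative carriers of tRNA to the ribosome, had values of 0.08 and 0.10 that did not pass.

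The 5 eIF2B subunits were listed, per length, with EIF2B1 at 34.3 ± 2.15, EIF2B5 at 23.6 ± 1.43, EIF2B2 at 21.6 ± 1.10, EIF2B4 at 19.98 ± 1.29 and EIF2B3 at 12.95 ± 1.42 FPKM (SD, n = 12). Neighbours among EIF2B5, EIF2B2 and EIF2B4 differed by less than the sum of their SDs, while EIF2B1 and EIF2B3 stood clear of them. With 1-AKP 2 of the 5 rose. EIF2B3, the gamma subunit of the catalytic part, was at 21.2, 21.7 and 19.2 CPM with negative siRNA in DMSO against 22.4, 24.5 and 27.0 CPM in 1-AKP, and at 19.6, 21.7 and 20.6 against 25.4, 23.4 and 27.4 CPM with TUNAR siRNAs. The libraries did not overlap within either siRNA, and the averaged log2 fold change was 0.28 (SE 0.06, edgeR adjusted p = 0.00867). EIF2B1, of the regulatory part, rose by 0.14 (SE 0.04, adjusted p = 0.0404), a call that held in 3 of the 12 fits that leave out 1 library. EIF2B5, the subunit that GSK3 phosphorylates, was at 61.8, 68.2 and 67.4 CPM with negative siRNA in DMSO and at 69.5, 73.3 and 74.0 CPM in 1-AKP. With TUNAR siRNAs it was at 61.3, 65.7 and 68.5 CPM against 66.2, 76.3 and 71.4 CPM, and there the groups overlapped. Its averaged log2 fold change of 0.13 (SE 0.05, adjusted p = 0.0652) did not pass. EIF2B2 and EIF2B4 had 0.02 and 0.05, with 95% intervals from -0.10 to 0.13 and from -0.08 to 0.19.

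The messages of the start codon group moved unevenly. EIF5, which makes eIF2 hydrolyse its GTP at the start codon, rose by 0.18 on the log2 scale (SE 0.05, adjusted p = 0.0214), a call held in 8 of the 12 fits that leave out 1 library. EIF1B, a close relative of EIF1, was 1 of the 2 members that fell, from 49.0 ± 3.72 to 45.0 ± 0.610 CPM with negative siRNA and from 52.2 ± 1.59 to 47.2 ± 1.77 CPM with TUNAR siRNAs (SD, n = 3). Its log2 fold change was -0.13 (SE 0.04, edgeR adjusted p = 0.0481), a call held in 2 of 12 fits that leave out 1 library. EIF1, EIF1AX and EIF1AD had positive values of 0.08, 0.10 and 0.13 that did not pass. EIF5 and EIF1B, like other called genes beyond the 15 with the lowest p, are named after their values were seen.

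Of the 14 eIF3 genes 10 rose, with a median of 0.14 on the log2 scale over the 14. EIF3M was at 82.5, 81.9 and 79.6 CPM with negative siRNA in DMSO and at 89.7, 94.1 and 90.9 CPM in 1-AKP. With TUNAR siRNAs it was at 78.3, 77.5 and 76.8 CPM against 91.9, 88.2 and 95.3 CPM. All 6 libraries with 1-AKP were above all 6 in DMSO, and the averaged log2 fold change was 0.21 (SE 0.03, edgeR adjusted p = 0.00068). EIF3I, a beta-propeller subunit, was at 145, 158 and 158 against 172, 186 and 184 CPM with negative siRNA. With TUNAR siRNAs it was at 139, 153 and 150 against 166, 182 and 181 CPM, again with no overlap between treatments, and it rose by 0.25 (SE 0.04, adjusted p = 0.00104). EIF3C, one of the large scaffold subunits, rose by 0.12 (SE 0.03, adjusted p = 0.00457). The other risen subunits were EIF3A, EIF3B, EIF3D, EIF3E, EIF3G, EIF3H and EIF3J, between 0.12 and 0.22. Only 4 of the 10 calls, EIF3M, EIF3I, EIF3C and EIF3J, held in all 12 fits that leave out 1 library: EIF3G was called in 2, EIF3D in 3, EIF3B and EIF3E in 5, EIF3H in 8 and EIF3A in 10. EIF3E, EIF3G and EIF3H were not called with the length trend removed (adjusted p = 0.0541, 0.119 and 0.0714). EIF3F, EIF3K and EIF3L had 0.07 to 0.08 and did not pass, nor did EIF3CL.

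**Figure D3:**
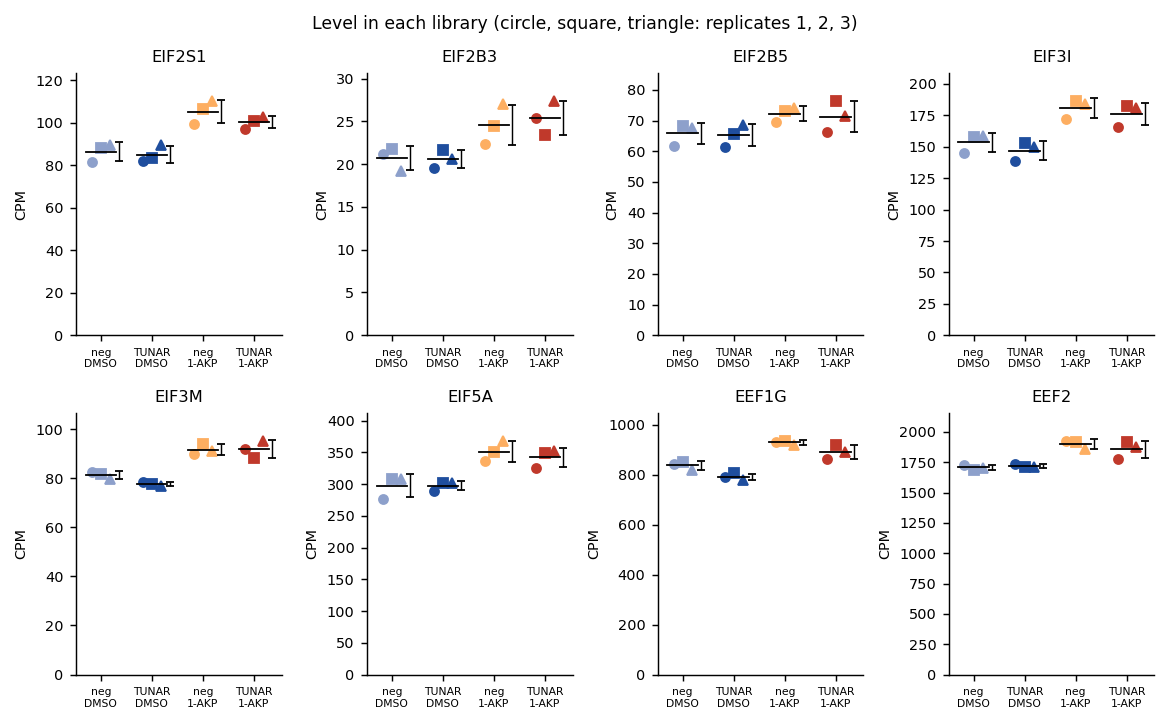
CPM of 8 factors in each library of the 4 groups, with the group mean (line) and SD (bar, n = 3); marker shape gives the replicate and all axes start at 0. For EIF2S1, EIF3I, EIF3M, EIF5A, EEF1G and EEF2 the libraries with 1-AKP lie above those with DMSO within each siRNA, whereas those of EIF2B5 overlap with TUNAR siRNAs.

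The eIF4 group, named for the factor that recognises the cap and unwinds the leader, had the lowest median of the groups, 0.07 on the log2 scale. In it 3 of 12 genes rose and 1 fell. EIF4A1, an RNA helicase, rose by 0.21 (SE 0.05, edgeR adjusted p = 0.0172), its cofactor EIF4H by 0.13 (SE 0.03, adjusted p = 0.0135) and EIF4G2, an eIF4G relative that lacks the EIF4E-binding region, by 0.10 (SE 0.03, adjusted p = 0.0347), the last called in 3 of the 12 fits that leave out 1 library. EIF4E3, an atypical cap-binding protein, fell from 19.99, 20.9 and 20.7 CPM to 18.02, 17.5 and 17.2 CPM with negative siRNA. With TUNAR siRNAs it was at 23.4, 20.4 and 23.0 CPM against 20.7, 18.9 and 17.2 CPM, where 1 library of 1-AKP lay above the lowest of DMSO. Its averaged log2 fold change was -0.23 (SE 0.06, adjusted p = 0.0164), and it was no longer called with the length trend removed (-0.17, adjusted p = 0.0646). EIF4E had 0.10 (SE 0.04, 95% interval 0.02 to 0.18, adjusted p = 0.073), the scaffold EIF4G1 0.17 (adjusted p = 0.0914) and EIF4G3 -0.09 (adjusted p = 0.0651). EIF4E1B, at 7 to 13 counts per library, had -0.24 with an adjusted p of 0.566.

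Among the 4E-BPs EIF4EBP2 rose, from 345, 358 and 347 CPM to 375, 381 and 381 CPM with negative siRNA and from 349, 349 and 354 CPM to 398, 367 and 375 CPM with TUNAR siRNAs. The groups did not overlap, and the averaged log2 fold change was 0.12 (SE 0.03, edgeR adjusted p = 0.0101). EIF4EBP1, an ATF4 target in beta cells, had 0.11 (95% interval -0.05 to 0.26, adjusted p = 0.301).

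Of the elongation factors, both tested genes of eIF5A, the hypusine-bearing factor that relieves stalled ribosomes, rose. With negative siRNA EIF5A was at 276, 308 and 309 CPM in DMSO against 336, 350 and 368 CPM in 1-AKP. In cultures given TUNAR siRNAs it was at 289, 301 and 302 against 325, 349 and 352 CPM. All libraries with 1-AKP were above all with DMSO, and the averaged log2 fold change was 0.22 (SE 0.04, edgeR adjusted p = 0.00155). EIF5A2, the minor form, had the largest rise of the called members, 0.32 (SE 0.05, adjusted p = 0.00103). EEF1G, a subunit of the eEF1 exchange complex, was at 843, 850 and 818 CPM in DMSO against 930, 936 and 919 CPM in 1-AKP in cultures given negative siRNA. In those given TUNAR siRNAs it was at 790, 805 and 780 against 863, 918 and 892 CPM, so all libraries with 1-AKP were higher. It rose by 0.16 (SE 0.03, adjusted p = 0.000884). The exchange subunits EEF1B2 and EEF1D rose by 0.23 (adjusted p = 0.0111) and 0.18 (adjusted p = 0.0105).

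EEF1A1 rose by 0.11 on the log2 scale (SE 0.03, edgeR adjusted p = 0.00654), from 5534 ± 175 to 5970 ± 81.6 CPM with negative siRNA and from 5451 ± 111 to 5903 ± 87.5 CPM with TUNAR siRNAs (SD, n = 3). EEF1A2 had 0.19 with a wider spread (SE 0.09, adjusted p = 0.18). EEF2, the translocase, was at 1731, 1690 and 1704 CPM against 1929, 1921 and 1857 CPM with negative siRNA. Cultures given TUNAR siRNAs were at 1735, 1712 and 1709 against 1779, 1920 and 1873 CPM, so 1-AKP libraries were higher throughout, and it rose by 0.13 (SE 0.03, adjusted p = 0.00316). EEF2K, the kinase that inhibits EEF2, had 0.06 (95% interval -0.11 to 0.22). EEF2KMT, which methylates EEF2, rose by 0.27 (SE 0.08, adjusted p = 0.0355), and EIF6, which keeps the large subunit from joining too early, by 0.21 (SE 0.06, adjusted p = 0.0327). EEF2KMT was called in 5 and EIF6 in 4 of the 12 fits that leave out 1 library, and EIF6 was not called with the length trend removed (adjusted p = 0.0658).

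The 12 members with a pyrimidine start had a median log2 fold change of 0.11, and 6 rose. The 36 tested members with a window but no such start had 0.12, and 16 rose and 2 fell. This split rests on the annotated start alone: EEF1G, listed as a known TOP mRNA, had a run of 0 there. Of the 9 members listed as known TOP mRNAs 7 rose, against 46.8% of all tested members, a difference that was not tested. The 12 tested members with CACGTG had 0.09 against 0.13 for the other 36.

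The same comparison was made within each siRNA, on separate libraries. With negative siRNA 8 members rose and 0 fell, where 7.30% of all genes were called and 3.54% rose: EIF2S1, EIF5A, EEF2, EEF1G, EIF3I, EIF3C, EIF3M and EIF5A2. With TUNAR siRNAs 7 rose and 0 fell, where 7.51% of all genes were called and 3.72% rose: EIF3M, EIF5A2, EEF1G, EIF3I, EIF2S1, EIF5A and EIF2S2. The lists shared 6 members, 75% of the first list and 85.7% of the second. Over 61 members, with the low-count EIF3CL left out, the log2 fold changes of the separate comparisons correlated at Pearson's r = 0.73. Over all genes tested, with low-count genes kept, r was 0.49, so these values rest on unlike sets and are not compared. Genes are also not independent. Of the 62 members 55 were positive in both, against 38.3% of all genes. No library with 1-AKP overlapped a DMSO library, all being higher, for 37 of 62 members with negative siRNA (13.4% of all genes), 22 with TUNAR siRNAs (12.1%) and 17 with both (7.38%). The opposite pattern with both siRNAs held for 0 members (6.97% of all genes). Within passage 74 alone 0 members were called with either siRNA in edgeR. Leaving out 1 library moved these counts to between 1 and 12 with negative siRNA, where it was 1 without replicate 2 or 3 of negative siRNA with 1-AKP, and to between 1 and 11 with TUNAR siRNAs, where it was 1 without replicate 3 of TUNAR siRNAs with 1-AKP.

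**Figure D4:**
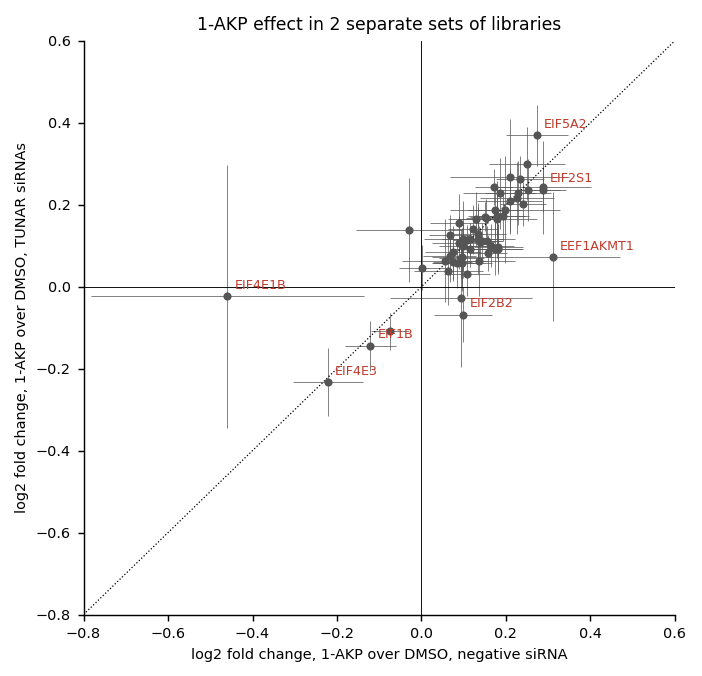
Log2 fold change of each member with 1-AKP over DMSO with negative siRNA (horizontal) and with TUNAR siRNAs (vertical), which rest on separate libraries; bars are standard errors, the dotted line marks equal values and EIF3CL is left off. Most points lie in the upper right, and EIF4E3 and EIF1B lie below 0 on both axes.

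Few of these mRNAs were called for TUNAR silencing. In DMSO edgeR called 0 of 62 members, with 3 at an unadjusted p under 0.05, where 0.0125% of all genes were called, and DESeq2 and limma also called 0. In 1-AKP edgeR called 0 members, with 1 at an unadjusted p under 0.05, and 0% of genes. TUNAR itself, the siRNA target, was thus not called there, although its libraries did not overlap. A count of 0 members in this fit therefore does not show that they were unchanged. Averaged over both treatments edgeR called 0 members, with 4 at an unadjusted p under 0.05 and 0.175% of genes called. DESeq2 called 1, EIF5A2 (log2 fold change -0.23, adjusted p = 0.0316). These fits were unpaired. Only in the block fits were the siRNA groups treated as paired by replicate number, which the labels do not state. With that number as a block 1 member rose and 2 fell in DMSO (3.05% of genes called), 0 in 1-AKP with 7 at an unadjusted p under 0.05 (2.77%), and 2 rose and 4 fell on average (8.59%). With 1 replicate number left out, the block fit called 0 or 1 members in DMSO (1 without number 3) and 2, 3 and 5 on average without numbers 1, 2 and 3. The members' share of calls with the block was close to that of all genes.

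In DMSO EIF5A2 was at 39.6, 36.9 and 34.9 CPM in cultures given negative siRNA against 30.4, 31.7 and 29.7 CPM in those given TUNAR siRNAs, and the groups did not overlap. In 1-AKP it was at 47.7, 45.3 and 41.6 against 39.6, 36.7 and 42.2 CPM, where the libraries of replicate 3 went the other way by 0.02 on the log2 scale. The averaged log2 fold change was -0.23 (SE 0.05) with an edgeR adjusted p of 0.103, and with the block -0.23 (SE 0.04) and 0.000287. EIF4EBP1 was at 30.1, 33.9 and 33.8 against 25.6, 28.7 and 30.02 CPM in DMSO and at 31.4, 35.9 and 37.4 against 27.4, 30.6 and 33.4 CPM in 1-AKP. It was lower with TUNAR siRNAs in 6 of 6 same-number pairs, by 0.16 to 0.24 on the log2 scale, with an averaged log2 fold change of -0.20 (SE 0.07, adjusted p = 0.304) and, with the block, -0.21 (SE 0.04, adjusted p = 0.000656). The other members called on average with the block were EIF4A2 (0.08, adjusted p = 0.0045) and EIF1 (0.07, adjusted p = 0.0271), both higher, and EEF1G (-0.07, adjusted p = 0.00934) and EIF1AX (-0.10, adjusted p = 0.0205), both lower. Without the block their adjusted p-values in edgeR were not under 0.05.

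**Figure D5:**
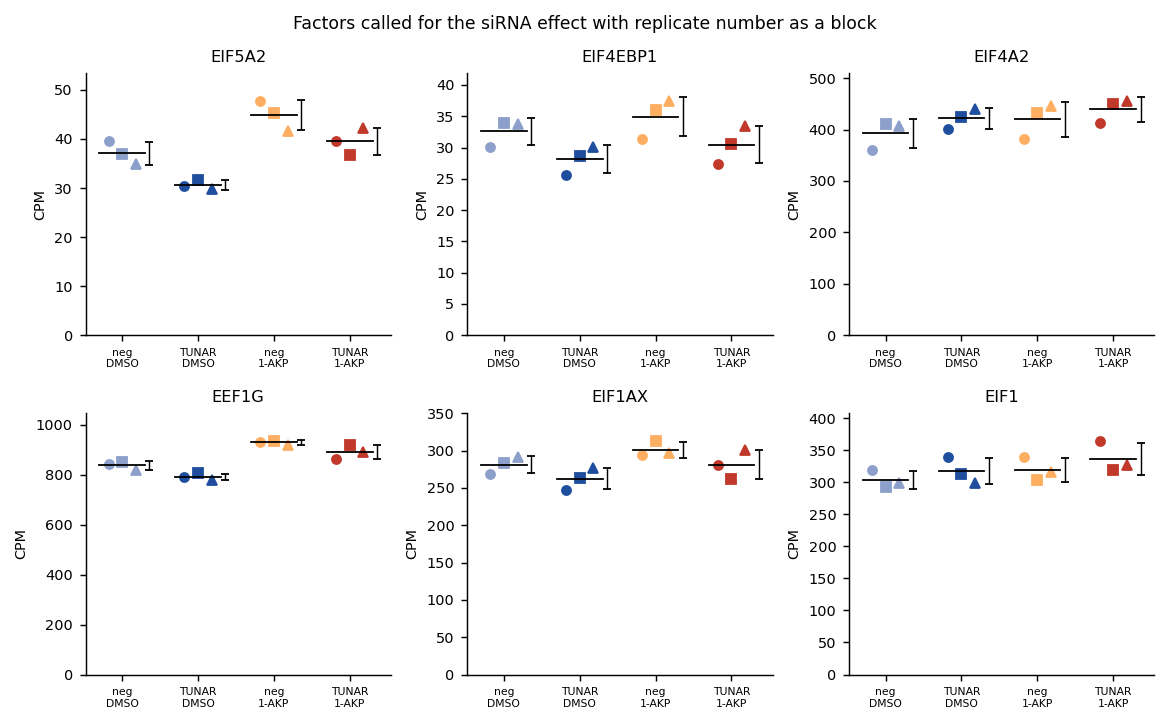
CPM in each library of the 6 factors called for the siRNA effect, averaged over treatments, once replicate number was a block; lines are group means, bars SD (n = 3), and marker shape gives the replicate. EIF5A2 and EIF4EBP1 are lower with TUNAR siRNAs at each replicate number within each treatment, apart from replicate 3 of EIF5A2 in 1-AKP.

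The siRNA effects did not differ detectably between the treatments: edgeR called 0 members and 0% of genes for that difference, with 0 members at an unadjusted p under 0.05, with and without the block. For EIF5A2 the difference was 0.10 on the log2 scale with a 95% interval from -0.14 to 0.34, and for EIF4EBP1 0.02 from -0.29 to 0.32, so changes of that size were not excluded.

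Genes around these factors were counted from lists for comparison, in the average over both siRNAs, where 19.2% of all genes were called and 9.97% rose. Of 22 cytosolic aminoacyl-tRNA synthetase genes, which charge tRNA, 9 rose with 1-AKP and 0 fell, including FARSB (0.34, edgeR adjusted p = 0.00159) and YARS1 (0.31, adjusted p = 0.00307). Of 14 known TOP mRNAs 9 rose and 0 fell, but 9 of the 14 are members, and 2 of the 5 others rose, RACK1 and PABPC1. Of 16 poly(A)-binding, reinitiation, termination and recycling genes 7 rose and 2 fell, the latter PAIP2 and PAIP2B, which inhibit poly(A)-binding protein. PAIP2 went from 75.4 ± 1.22 to 54.5 ± 1.70 CPM with negative siRNA and from 71.9 ± 1.01 to 57.8 ± 4.73 CPM with TUNAR siRNAs (SD, n = 3; log2 fold change -0.39, adjusted p = 5.46e-05). The termination factors GSPT1 and ETF1 rose by 0.14 and 0.16.

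Of 19 regulators of mTORC1, 4E-BP and S6 kinase 2 rose and 3 fell. PDCD4, an inhibitor of the helicase EIF4A1, went from 95.2 ± 1.65 to 59.6 ± 6.28 CPM with negative siRNA and from 99.9 ± 4.27 to 60.9 ± 10.2 CPM with TUNAR siRNAs (SD, n = 3; log2 fold change -0.70, edgeR adjusted p = 5.78e-05). MTOR fell by 0.13 and DEPTOR by 1.39, and RPS6KB2 and MLST8 rose by 0.23 and 0.20 on the log2 scale. Of 15 genes of the eIF2 kinases and integrated stress response 3 rose, ATF4 (0.17, adjusted p = 0.00155), TRIB3 (0.23) and ASNS (0.15), and 2 fell, VLDLR and CEBPG. Of 11 mitochondrial factors 3 rose and 0 fell, MTRF1L, MRRF and TUFM, and of 9 hypusine and diphthamide enzymes 2 rose and 0 fell, DPH5 and DOHH, the hydroxylase that completes hypusine on eIF5A. The calls among the mTORC1, mitochondrial and hypusine and diphthamide lists, 5 of 19, 3 of 11 and 2 of 9, were near the share over all genes. GSK3A had 0.10 (adjusted p = 0.0767) and GSK3B -0.02 (adjusted p = 0.79). For the siRNA effect averaged over treatments edgeR called 2 genes of these lists: PABPC4 was higher with TUNAR siRNAs (0.30, adjusted p = 0.00472) and PPP1R15B, a partner of the eIF2 phosphatase, lower (-0.20, adjusted p = 0.0157).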

How the data were processed

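The libraries were made from polyadenylated RNA, and the labels' protocols name no strand marking. The authors deposited, per the file headers, expected counts (estimated counts per gene, not normalised) and FPKM for each library and gene. The deposited length column, a value in bases with no expression unit, gave gene lengths. The submitters' processing notes name BWA, Bowtie and RSEM and GRCh37 and hg19, without versions. Of 21508 Entrez identifiers 21386 matched a current symbol.

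Expected counts were rounded. Genes were kept by filterByExpr in edgeR 4.0.16 under R 4.3.3 (minimum count 10, minimum total 15), scaled by TMM and fitted with 4 group means over 12 libraries (glmQLFit, robust). Contrasts were tested by quasi-likelihood with Benjamini-Hochberg adjustment over 15990 genes (threshold 0.05). FPKM were used for levels between genes and, as log2(FPKM + 0.1), in limma 3.58.1. DESeq2 1.42.0 was another alternative. Within groups no pair of libraries was a copy (chi-square per degree of freedom 2.37 to 11.9).

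Same-numbered libraries deviated together over genes in the siRNA comparisons (r = 0.376, 0.178 and 0.217 in DMSO, 0.416, 0.162 and 0.286 in 1-AKP, all over 0.1), so block fits stand beside them. The pairing comes from the replicate numbers in the labels, which do not say that cultures were paired. In the 1-AKP comparisons 1 of 3 correlations was below 0.1 for each siRNA (0.087 and 0.063), while those of replicate 1 were 0.427 and 0.407.

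The members, gene lists, comparisons and the averaged contrasts were chosen with earlier results of these data known. Named members are the called ones with the lowest p (up to 15 per comparison, or the lowest 6), the eIF2B subunits, EIF4E, the 4E-BPs, EEF1A1, EEF1A2, EEF2, EEF2K, EIF5A, EIF5A2, and the 5 highest and 5 lowest by FPKM; from each further list up to 4 called genes per comparison. The script was tested on simulated counts.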

Additional observations from a re-analysis of the deposited data

How the results depend on the processing

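Counts of called members kept their direction, more higher than lower with 1-AKP, in every alternative that called any; causes of the changes were not tested. With 1-AKP averaged over siRNAs, 31 members were called. The count was 48 with replicate number as a block, 30 with DESeq2, 35 with passage as a covariate, 26 without TMM, 33 with the length trend removed (an alternative chosen after seeing the data) and 4 within passage 74. It lay between 20 (without replicate 3 of negative siRNA with 1-AKP) and 32 (without replicate 1 of TUNAR siRNAs with 1-AKP) when 1 library was left out. With the block it was 36 to 47 when a replicate number was left out. The block also raised the calls over all 15990 genes: 3297 rose and 3046 fell, against 1595 and 1479 without it. Calls over all genes in the other alternatives are not given here, so those counts are not read as results about the members. Of the 31 called members 19, the 15 with the lowest p among them, were called in all 12 fits that leave out 1 library, and the other 12 in 2 to 10. With the length trend removed 5 lost their call: EIF4E3, EIF3E, EIF3G, EIF3H and EIF6.

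With negative siRNA the count of 8 became 39 with the block, 13 with passage as a covariate, 13 with DESeq2, 4 without TMM, 5 with limma at either pseudocount, 3 with only the 6 libraries compared and 0 within passage 74. Leaving out 1 library gave 1 to 12, and leaving out a replicate number with the block 24 to 35, with 33 between. With TUNAR siRNAs the count of 7 became 37 with the block, 1 with only the 6 libraries and 0 within passage 74. Leaving out 1 library gave 1 to 11, and leaving out a number with the block 22 to 33, with 29 between. Leaving out replicate 1 of all groups, chosen after seeing the data, gave 27 and 25. Of all 15990 genes the block fit called 2240 higher and 2045 lower with negative siRNA, against 566 and 602 without the block. With TUNAR siRNAs it called 2267 higher and 2068 lower, against 595 and 606.

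For the siRNA effect the block, by replicate number as paired, called 3 members in DMSO and 6 on average, and DESeq2 1 on average. Leaving out a number with the block gave 0 to 1 in DMSO, 0 to 1 in 1-AKP and 2 to 5 on average, with 3 between. Leaving out replicate 1 of all groups gave 1 on average, EIF4EBP1. The 1-AKP pairs did not all deviate together, so their block counts describe a shared number only. With 3 libraries a group, differences well beyond the standard errors given in the text could go uncalled. For EIF5A2 the siRNA effect averaged over treatments was -0.23 on the log2 scale, with an edgeR adjusted p of 0.103 without the block.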
